A study of Mus musculus with 2 samples.

Results

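Rgs2, Rgs4, Rgs5, Rgs9, Rgs16 and Rgs17, genes of the regulator of G protein signaling (RGS) family, were followed through mouse islet cells by single-cell RNA-Seq. They were taken by symbol from the gene table, where all 6 members were found among 27998 genes, beside 15 other RGS genes. The members were chosen by their UMI counts in these same libraries, across classes of cells and between genotypes, so every level and ratio below is a description. The islets came from WT mice and from littermates homozygous for a ghrelin knockout (GKO), all male, on the C57BL/6N background, 8 weeks old and fed standard chow. Islets of 4 mice were pooled for each genotype, viable cells were sorted, and 1 library was made from each pool, so there was no replicate of either genotype. No test was therefore made, and the intervals given are 95% intervals that cover counting error only. Counts are of unique molecular identifiers (UMIs), each marking 1 captured transcript 3′ end, and CPM are UMIs per 1000000 UMIs of a summed group of cells.

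When an agonist activates its receptor, the receptor loads GTP onto the α subunit of a G protein, and the signal lasts until that GTP is hydrolyzed. RGS proteins speed up the hydrolysis and so shorten the signal. They differ in the α subunits they act on: Rgs2 prefers the Gq class, the small proteins Rgs4, Rgs5 and Rgs16 act on the Gi and Gq classes, Rgs17 belongs to a group that acts on Gi and Gz, and Rgs9 belongs to a group that works with a G protein β subunit, Gnb5. In islets, receptors of these classes carry acetylcholine, norepinephrine, somatostatin and fatty acid signals to hormone secretion.

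The WT library held 158067110 UMIs in 7792 barcodes and the GKO library held 103511757 UMIs in 7289 barcodes, of which 7100 and 6346 passed the study's limits (no fewer than 500 genes, no more than 10% of UMIs mitochondrial). A barcode was called hormone-led when insulin (Ins1 with Ins2), Gcg, Sst or Ppy made up at least 10% of its UMIs, and the others were divided by marker genes. Of the barcodes kept, 246 in WT and 225 in GKO had a leading hormone between 8 and 12%, near that limit. Of the barcode sequences, 18 occurred in both libraries. Ghrl, the deleted gene, had 43621 UMIs in the WT barcodes kept and 280 in the GKO barcodes, 276 of the latter in 1 barcode. The 9 classes with at least 50 barcodes in each library were compared. They comprised 2265 WT and 872 GKO insulin-led barcodes, 1048 and 1397 glucagon-led, 1414 and 1003 somatostatin-led, and 717 and 669 pancreatic-polypeptide-led barcodes. The nonendocrine classes comprised 584 WT and 440 GKO endothelial barcodes, 206 and 412 of the quiescent stellate class, whose list also marks pericytes and muscle, 259 and 589 activated stellate, 200 and 458 resident macrophage, and 154 and 183 barcodes with ductal markers. The class with ductal markers was mixed, because Ghrl led its genes and 64 WT and 73 GKO barcodes had at least 5 UMIs of the duct keratin Krt19, so it is not read as 1 cell type. In every other class, markers of that class were highest there in both libraries, at least 2 of each list. Quiescent stellate barcodes made up 2.90% of the barcodes kept in WT and 6.49% in GKO. Insulin made up a median of 61.8% of the UMIs of WT insulin-led barcodes and 60.4% in GKO, so the CPM of other genes there are low relative to the classes with less hormone.

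**Figure D1:**
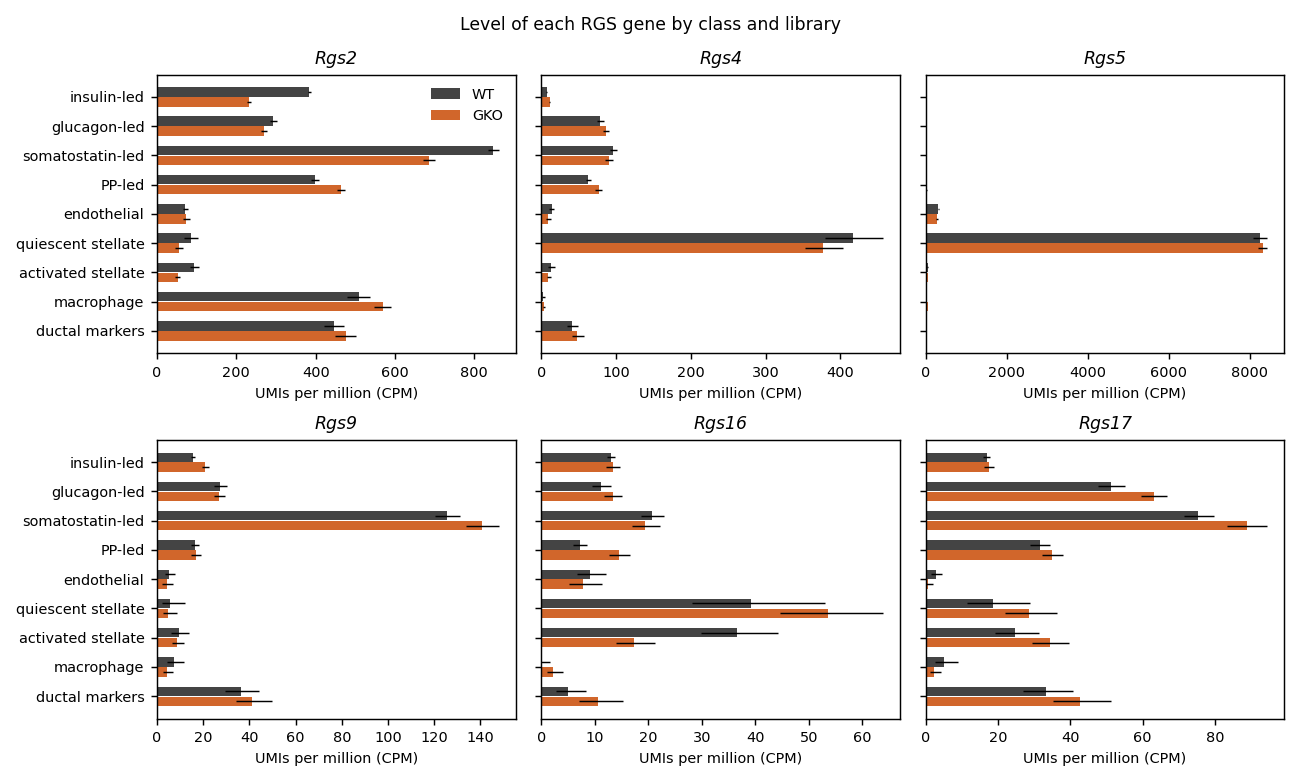
Bars show the CPM of each RGS gene (horizontal axis, linear, from 0, a different scale in each panel) in each class of barcodes (vertical axis) in the WT and the GKO library, and lines show 95% counting intervals. Rgs2 and Rgs9 were highest in somatostatin-led barcodes, Rgs4 and Rgs5 in the quiescent stellate class, and the bars of the libraries lie apart for Rgs2 in insulin-led barcodes (384 and 233 CPM) and for Rgs16 in activated stellate barcodes (36.5 and 17.2 CPM).

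Rgs2 (ENSMUSG00000026360; GRCm38 chromosome 1, 143999338 to 144004161, minus strand) was the one member above 50 CPM in all 9 classes of both libraries. Rgs4 (ENSMUSG00000038530; chromosome 1, 169741477 to 169747642, minus strand) and Rgs5 (ENSMUSG00000026678; chromosome 1, 169655501 to 169695813, plus strand) lie 45663 bases apart with no protein-coding gene between them, and no annotated gene overlaps any of these 3 genes. The 250 bases before the RefSeq start of each (GRCm38.p6) are shown because Rgs2 was broad while the neighbors Rgs4 and Rgs5 shared the quiescent stellate class but not the endocrine classes. They read 5′ to 3′ in the direction of the gene, and capitals mark half-sites of the cAMP response element, TGACG or its complement CGTCA, searched on both strands.
Rgs2, chr1:144004150-144004399, minus strand: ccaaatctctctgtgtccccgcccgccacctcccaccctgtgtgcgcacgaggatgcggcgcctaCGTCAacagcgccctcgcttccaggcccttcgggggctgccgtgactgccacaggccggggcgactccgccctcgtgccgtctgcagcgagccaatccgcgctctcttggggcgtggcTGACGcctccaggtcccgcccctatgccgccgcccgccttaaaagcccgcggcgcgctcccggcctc
Rgs4, chr1:169747643-169747892, minus strand: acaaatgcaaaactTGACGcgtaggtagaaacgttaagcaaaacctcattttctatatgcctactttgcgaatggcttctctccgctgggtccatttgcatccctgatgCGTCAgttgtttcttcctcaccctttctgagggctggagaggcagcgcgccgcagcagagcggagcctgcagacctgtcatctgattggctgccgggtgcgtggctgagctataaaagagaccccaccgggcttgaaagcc
Rgs5, chr1:169655251-169655500, plus strand: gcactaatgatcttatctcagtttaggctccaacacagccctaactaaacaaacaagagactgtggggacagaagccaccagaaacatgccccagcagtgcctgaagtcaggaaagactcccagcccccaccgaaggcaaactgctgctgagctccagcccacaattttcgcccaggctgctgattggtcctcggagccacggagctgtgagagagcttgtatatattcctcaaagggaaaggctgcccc
The Rgs2 sequence held 2 half-sites, which began 185 and 67 bases before the start, and the Rgs4 sequence held 2, at 236 and 141 bases. Rgs5, Rgs9, Rgs16 and Rgs17 had none in the same window, and 17.8% of 32851 promoters of this length held at least 1. The Rgs2 window was 72.4% G or C, against 53.6% for both Rgs4 and Rgs5. Such a match says only that these letters are present.

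Rgs2 was highest in somatostatin-led barcodes. These had 14172 UMIs or 848 CPM (95% interval 834 to 862) in WT and 7525 UMIs or 685 CPM (670 to 701) in GKO. Resident macrophage barcodes followed with 508 CPM in WT and 569 in GKO, above the next class in both libraries with intervals apart. Pancreatic-polypeptide-led barcodes had 398 CPM in WT and 464 in GKO, insulin-led barcodes 384 and 233, and glucagon-led barcodes 293 and 270. The class with ductal markers, at 446 and 475 CPM, could not be placed against the pancreatic-polypeptide-led class. Within it the barcodes with at least 5 Krt19 UMIs had 154 CPM in WT and 283 in GKO, and those with fewer had 748 and 635. Endothelial, quiescent stellate and activated stellate barcodes had between 52.3 and 93.3 CPM in either library, in a different order in each. Somatostatin-led barcodes lost the first place in GKO, by a log2 ratio of −0.14 to the macrophage class, when Sst had to make up at least 25% of the UMIs, which left 106 WT and 90 GKO barcodes.

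The places of the insulin-led, pancreatic-polypeptide-led and resident macrophage classes in this order depended on the total. When the hormone genes Ins1, Ins2, Gcg, Sst, Ppy, Pyy and Iapp were left out of the total, Rgs2 was at 1120 CPM in WT insulin-led barcodes and 1220 in WT somatostatin-led barcodes. In GKO the same values were 642 and 978. Pancreatic-polypeptide-led barcodes had 781 and 891 CPM on this scale, and glucagon-led barcodes had 422 and 389. Resident macrophage barcodes had 519 and 578 CPM, below the insulin-led and pancreatic-polypeptide-led classes in both libraries. On this scale insulin-led barcodes thus came after the somatostatin-led class in the WT library, and after the pancreatic-polypeptide-led class as well in the GKO library, among the hormone-led classes.

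The largest difference between the libraries for Rgs2 in a hormone-led class was in insulin-led barcodes. There were 34160 UMIs in WT and 7633 in GKO, a log2 ratio of GKO to WT of −0.72 (−0.76 to −0.69), or 1.65-fold lower in GKO. This class had 13047 genes with 50 UMIs or more, of which 3.11% were at least 1.5-fold lower in GKO and 3.98% at least 1.5-fold higher, and 2.14% had a lower ratio than Rgs2. In the other hormone-led classes the Rgs2 ratio was −0.31 (−0.35 to −0.27) in somatostatin-led, −0.12 (−0.18 to −0.06) in glucagon-led and +0.22 (0.17 to 0.27) in pancreatic-polypeptide-led barcodes. The last lay on the other side of 0, but with mixed barcodes left out, the 24 WT and 14 GKO barcodes of that class that remained had 428 and 199 CPM, a ratio of −1.10. The hormone-led classes come from the same pools, and whether their ratios differ beyond the variation between mice could not be tested. Insulin-led barcodes made up 31.9% of the barcodes kept in WT and 13.7% in GKO. The study raises the possibility that GKO β cells were more fragile in handling, and limits its β cell results to survivors of sorting. How this selection bears on the Rgs2 ratio was not tested.

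The lower Rgs2 of the GKO insulin-led barcodes was seen across the distribution of barcodes. The median barcode had 310 CPM in WT and 158 in GKO, the lower quartile 144 and 55.4, and the upper quartile 590 and 370. At least 1 Rgs2 UMI was found in 97.9% of the WT barcodes and 89.0% of the GKO barcodes, at median depths of 37124 and 35811 UMIs. After each barcode was thinned to 3000 UMIs these shares were 58.3% (56.2 to 60.3) of 2263 barcodes and 42.3% (39.0 to 45.7) of 872 barcodes. No barcode held more than 93 Rgs2 UMIs in WT or 85 in GKO. Endothelial barcodes, with 13.2% and 12.8% after the same thinning, mark the level in a class with little Rgs2.

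**Figure D2:**
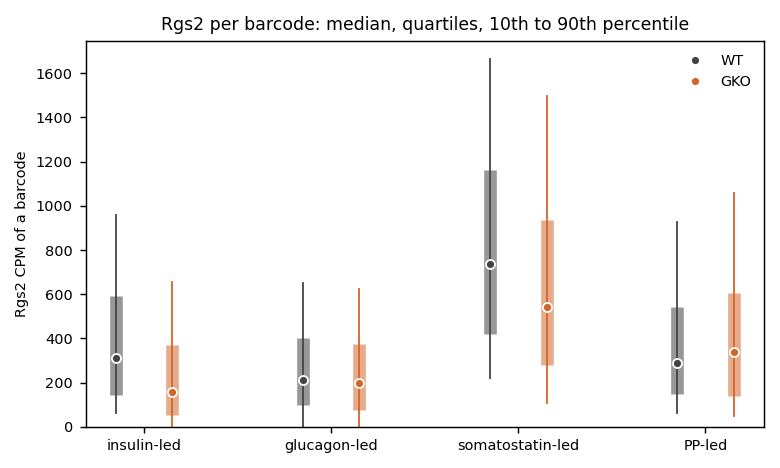
The vertical axis gives the Rgs2 CPM of single barcodes in the 4 hormone-led classes, with the median as a point, the quartiles as a thick bar and the 10th to 90th percentile as a line, for the WT and the GKO library. The insulin-led median was 310 CPM in WT and 158 in GKO, while the pancreatic-polypeptide-led median was 287 in WT and 338 in GKO.

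The same direction was found inside every group of insulin-led barcodes that had at least 50 barcodes in each library. Where insulin was 25 to 60% of the UMIs, Rgs2 was at 479 CPM in WT and 305 in GKO, and above 60% it was at 316 and 168. At 10000 to 30000 UMIs the values were 589 and 355 CPM, and from 30000 UMIs they were 339 and 201. With a mitochondrial share under 2% they were 223 and 127 CPM, at 2 to 4% 408 and 225, and from 4% 505 and 316. By this total Rgs2 was higher in barcodes with less insulin, fewer UMIs and more mitochondrial RNA in both libraries. Insulin is part of the total, and without the hormone genes the insulin groups were close in WT, at 1138 and 1107 CPM. In GKO they were at 708 and 565 CPM. On that scale the mitochondrial groups were at 815, 1178 and 1177 CPM in WT and at 476, 641 and 693 in GKO. Within each group Rgs2 was lower in GKO by either total.

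In insulin-led barcodes of both libraries all 6 members were higher where the immediate early genes, which stimulated cells switch on within minutes, were high. In WT insulin-led barcodes, the 567 with the least summed Fos, Fosb, Jun, Junb, Egr1, Nr4a1, Ier2, Npas4 and Atf3 had 289 CPM of Rgs2, and the 567 with the most had 517. In GKO the 218 lowest and 218 highest barcodes had 142 and 353 CPM. Between the same groups Rgs4 went from 1.74 to 19.3 CPM in WT and from 3.52 to 26.3 in GKO. Across barcodes, which share a library and a total, the rank correlation of Rgs2 with the summed level was 0.25 in WT and 0.33 in GKO. That of the other members was 0.28 and 0.19 for Rgs4, 0.21 and 0.20 for Rgs16, 0.16 and 0.17 for Rgs9, 0.16 and 0.16 for Rgs17 and 0.0701 and 0.0924 for Rgs5. For Rgs2 it was between −0.01 and 0.18 in the other hormone-led classes of either library. The summed level of the 9 genes in insulin-led barcodes was 578 CPM in WT and 543 in GKO, and 1 of the 9 (Nr4a1) was past 1.5-fold, higher in GKO. Rgs2 was lower in GKO at the low and at the high end of this range. In the other classes compared, the summed level was higher, from 2619 to 21472 CPM. Barcodes mixed with another cell could therefore lie in the high group. Rgs5, which few insulin-led barcodes held, went from 0.780 to 18.1 CPM in WT and from 0.486 to 50.7 in GKO between these groups. Both levels are taken on a total that includes insulin, so barcodes with less insulin can be higher in both. The split was not repeated without the hormone genes. The parts of insulin and of mixed barcodes in these differences were not tested.

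**Figure D3:**
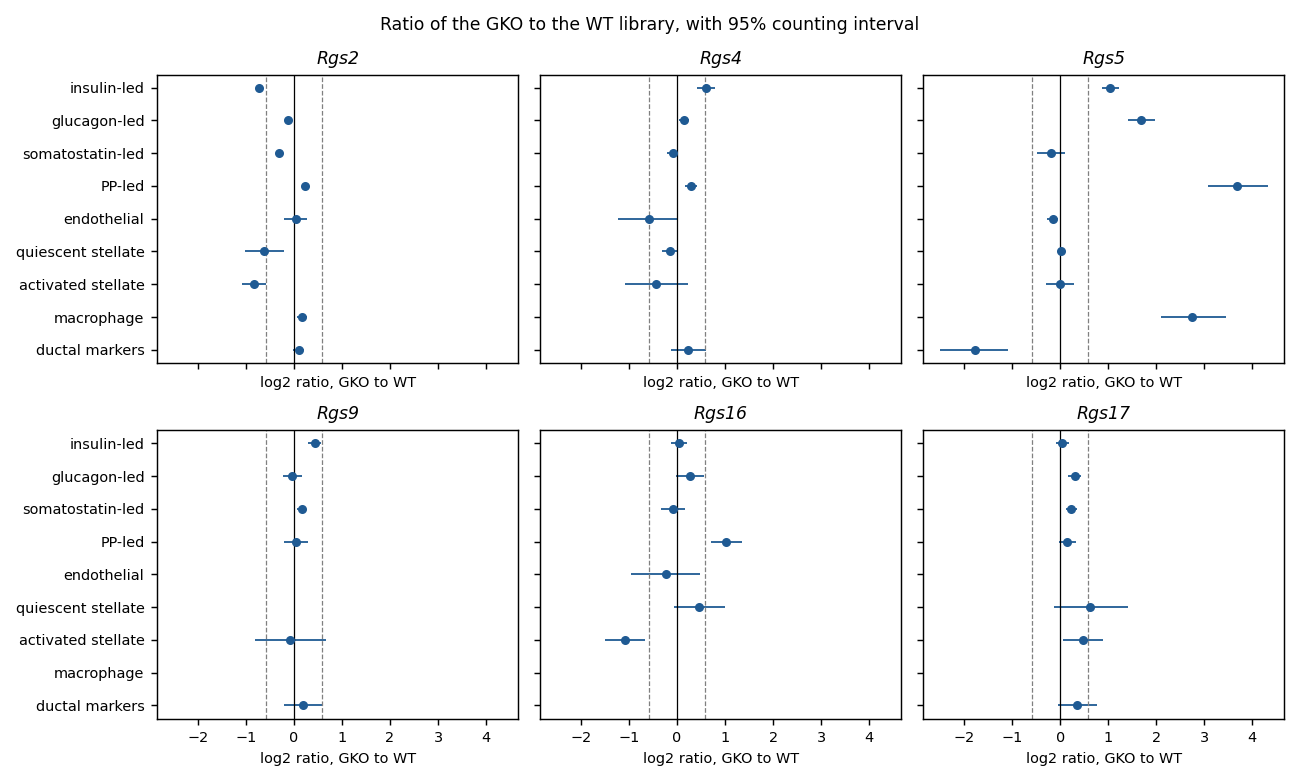
Points give the log2 ratio of GKO to WT (horizontal axis) of each RGS gene in each class (vertical axis) where at least 50 UMIs were counted, with 95% counting intervals, and dashed lines mark 1.5-fold. Rgs2 lies left of 0 in insulin-led barcodes and right of 0 in pancreatic-polypeptide-led barcodes, and the points farthest from 0 belong to Rgs5 in classes other than its own.

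Across the members, 46 pairs of gene and class had at least 50 UMIs, of which 7 were at least 1.5-fold higher in GKO and 6 at least 1.5-fold lower. Rgs5 made up 5 of these pairs, all outside the quiescent stellate class. In insulin-led barcodes 2 of 6 members were past 1.5-fold upward (Rgs4 and Rgs5) and 1 downward (Rgs2), against the backgrounds given above. In glucagon-led barcodes 1 of 6 was higher (Rgs5; background 2.94% higher and 2.72% lower), and in somatostatin-led barcodes none of 6 was past 1.5-fold (2.33% and 2.58%). In pancreatic-polypeptide-led barcodes 2 of 6 were higher (Rgs5 and Rgs16; 3.21% and 1.79%). In endothelial barcodes 1 of 4 was lower (Rgs4, 70 UMIs in WT and 33 in GKO; 3.23% and 3.51%), with an interval of the log2 ratio from −1.23 to 0.03. The quiescent stellate class had 1 of 5 higher (Rgs17) and 1 lower (Rgs2; 7.19% and 4.56%), activated stellate barcodes 2 of 6 lower (Rgs2 and Rgs16; 8.31% and 5.90%), macrophage barcodes 1 of 2 higher (Rgs5; 8.68% and 4.51%), and the class with ductal markers 1 of 5 lower (Rgs5; 8.50% and 4.60%). With so few members a class, these counts are given beside their backgrounds without a reading.

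Rgs2 was low in the stellate classes. In activated stellate barcodes it was at 93.3 CPM in WT and 52.3 in GKO (log2 ratio −0.84, −1.09 to −0.59) and in the quiescent stellate class at 84.9 and 55.3 (−0.62, −1.02 to −0.21). The first ratio rested on 261 WT and 276 GKO UMIs and the second on 91 and 128. In the quiescent stellate class 5 WT barcodes and 7 GKO barcodes held at least 50% of the Rgs2 UMIs. Activated stellate barcodes also had more hormone RNA in WT than in GKO. Sst was at 5298 and 2545 CPM, Gcg at 2942 and 825, Ppy at 2495 and 1003 and insulin at 4810 and 3912. In the quiescent stellate class Gcg was higher in WT (1439 and 606 CPM) and Sst lower (484 and 1406). The part of RNA from endocrine cells in these Rgs2 ratios was not tested.

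Rgs5, a gene by which pericytes are commonly recognized and 1 of the marker genes of the study for quiescent stellate cells, was kept out of the marker lists here. In the quiescent stellate class it had 8853 UMIs or 8255 CPM (8084 to 8429) in WT and 19254 UMIs or 8314 CPM (8197 to 8432) in GKO. The log2 ratio of GKO to WT was 0.01 (−0.03 to 0.05). At least 1 UMI was found in 96.1% of the WT and 97.3% of the GKO barcodes of this class. The class held 73.8% of the Rgs5 UMIs of all barcodes kept in WT and 83.0% in GKO. The level thus differed between the libraries by less than counting error, and by at most 0.05 on the log2 scale within that error, while the GKO library had 412 barcodes of the class and the WT library 206.

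Outside this class the Rgs5 UMIs lay in few barcodes. Endothelial barcodes had 314 CPM in WT and 282 in GKO, and 32 of 584 and 20 of 440 barcodes, those with at least 10 Rgs5 UMIs, held 96.9% and 96.3% of it. Of these, 27 and 17 also had at least 5 UMIs of the quiescent stellate marker list. In insulin-led barcodes Rgs5 was at 6.90 CPM in WT and 14.2 in GKO, and 12 WT barcodes, with 84.4% of it, and 8 GKO barcodes had at least 10 Rgs5 UMIs, each with at least 5 UMIs of that list as well. The remaining insulin-led barcodes were at 1.09 and 0.863 CPM. The other hormone-led classes without such barcodes were at 1.32 to 2.21 CPM in either library.

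**Figure D4:**
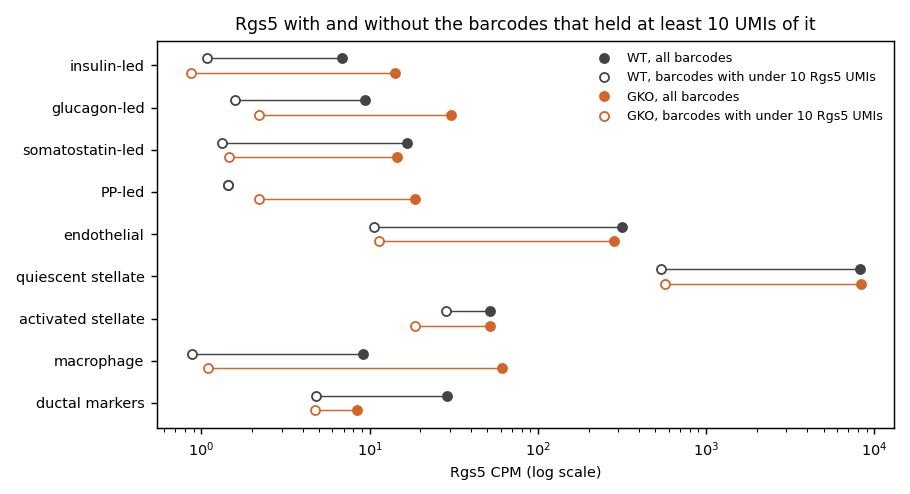
The horizontal axis gives Rgs5 CPM on a log scale for each class (vertical axis) in the WT and the GKO library, over all barcodes (filled) and over barcodes with fewer than 10 Rgs5 UMIs (open). The hormone-led classes fall from at most 30.3 CPM to between 0.863 and 2.21 CPM, and the quiescent stellate class falls as well, from 8255 and 8314 to 542 and 570 CPM, because the barcodes are left out by Rgs5 itself.

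The ratios of Rgs5 were large in classes that have little of it. The log2 ratio of GKO to WT was 1.05 in insulin-led, 1.69 in glucagon-led, 3.68 in pancreatic-polypeptide-led and 2.74 in resident macrophage barcodes. The background of genes at least 1.5-fold higher in GKO was 3.98%, 2.94%, 3.21% and 8.68% in these classes. In pancreatic-polypeptide-led barcodes 25 UMIs in WT stood against 288 in GKO, of which 88.2% lay in 4 barcodes. In resident macrophage barcodes 21 UMIs, of which 90.5% lay in 1 barcode, stood against 280, of which 98.2% lay in 2 barcodes. With the stricter marker rule (10 UMIs and 5 times the next list) macrophage barcodes were at 0.889 and 1.11 CPM, a ratio of 0.32. With mixed barcodes left out, the 24 WT and 14 GKO pancreatic-polypeptide-led barcodes that remained held no Rgs5 UMI. Barcodes of this class with fewer than 10 Rgs5 UMIs were at 1.45 CPM in WT and 2.21 in GKO. At such levels so few barcodes would hold hardly any, so their lack of Rgs5 does not inform the ratio. Without barcodes that held at least 5 quiescent stellate marker UMIs, insulin-led barcodes were at 0.931 CPM in WT and 0.837 in GKO, and the ratio was −0.15. By the same exclusion the ratio was 0.32 in macrophage barcodes (0.873 and 1.09 CPM) and 1.01 in pancreatic-polypeptide-led barcodes (1.11 and 2.22 CPM). Quiescent stellate barcodes were a larger share of the GKO library, as given above, and the part of this in the ratios was not tested.

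Rgs4, a small RGS protein known from neurons and heart muscle, was also highest in the quiescent stellate class, with 447 UMIs or 417 CPM (379 to 457) in WT and 874 UMIs or 377 CPM (353 to 403) in GKO. The log2 ratio of GKO to WT was −0.14 (−0.31 to 0.02). Unlike Rgs5 it was also found in endocrine barcodes: somatostatin-led barcodes had 96.4 CPM in WT and 90.5 in GKO, glucagon-led 78.6 and 86.8, and pancreatic-polypeptide-led 62.9 and 76.6. The first pair of these could not be put in order, because their intervals overlapped in GKO. This order also depended on the total. Without the hormone genes somatostatin-led barcodes had 139 and 129 CPM, glucagon-led 113 and 125, and pancreatic-polypeptide-led 123 and 147. The pancreatic-polypeptide-led value was then the highest of these classes in GKO. Resident macrophage barcodes, where 5 and 13 UMIs were counted, were at 2.16 and 2.82 CPM. Of the quiescent stellate barcodes 74.3% in WT and 70.4% in GKO had an Rgs4 UMI, against 2.50% and 1.97% of the macrophage barcodes whose median depth was higher (10402 and 8984 UMIs against 4664 and 5226).

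Insulin-led barcodes had little Rgs4, 642 UMIs or 7.21 CPM in WT and 358 UMIs or 10.9 CPM in GKO, and the log2 ratio of 0.60 (0.41 to 0.79) was just past 1.5-fold. At 10000 to 30000 UMIs, with 76 and 29 UMIs of Rgs4, the values were 4.90 and 4.42 CPM and the ratio −0.15 (−0.82 to 0.48), and from 30000 UMIs they were 7.60 and 12.6 CPM with a ratio of 0.72 (0.52 to 0.92). Of these UMIs, 140 in WT and 96 in GKO were in barcodes with little of a second hormone. Where every other hormone was under 0.5% of the UMIs, 1753 WT and 689 GKO barcodes had 2.08 (1.75 to 2.46) and 3.798 CPM (3.08 to 4.64). Where the second hormone was 2 to 10%, 362 and 145 barcodes had 25.4 (23.0 to 28.0) and 36.3 CPM (31.6 to 41.4). Rgs4 thus moved with the second hormone in both libraries, and the GKO value was the higher in each of these groups. Rgs9 and Rgs17 followed it to a lesser extent, from 11.1 to 33.4 and from 14.0 to 26.2 CPM in WT and from 15.3 to 39.3 and from 13.1 to 31.9 in GKO. Rgs2 went from 357 to 473 CPM in WT and from 197 to 360 in GKO. From 10% of a second hormone, in 62 WT and 22 GKO barcodes, Rgs4 was at 24.9 and 42.8 CPM, Rgs17 at 27.7 and 25.3, Rgs9 at 15.2 and 42.8 and Rgs2 at 369 and 308. Rgs2 in both libraries and Rgs9 in WT were thus lower there than at 2 to 10%, with intervals apart. Rgs17 in GKO and Rgs4 in WT were lower with overlapping intervals. The part of the second hormone in the ratios was not tested.

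**Figure D5:**
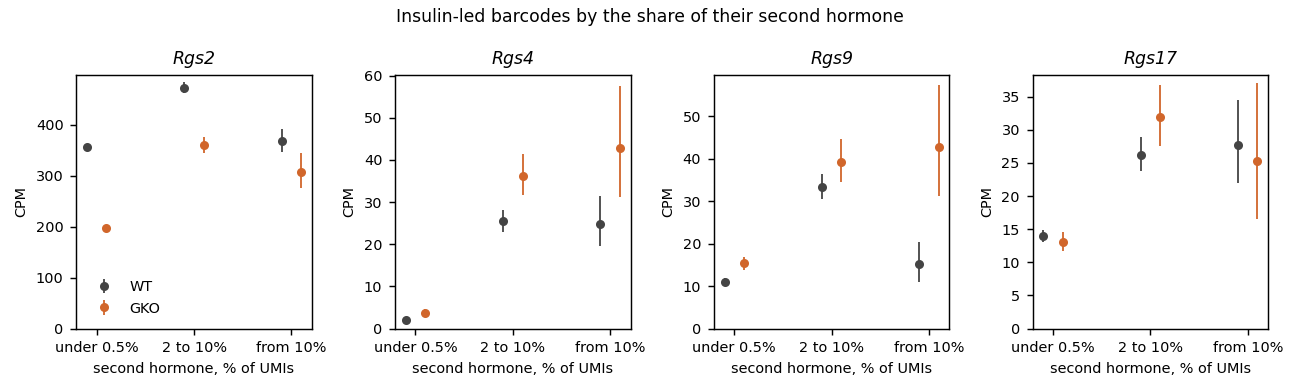
The vertical axes give the CPM of Rgs2, Rgs4, Rgs9 and Rgs17 in insulin-led barcodes of the WT and the GKO library, by the share of the UMIs taken by the second hormone (horizontal axis), with 95% counting intervals. Rgs4 goes from 2.08 to 25.4 CPM in WT and from 3.798 to 36.3 CPM in GKO from under 0.5% to 2 to 10%, and Rgs2 is lower in GKO in each of the groups plotted, also from 10% (369 and 308 CPM). The group from 0.5 to 2% (88 WT barcodes, 519 CPM of Rgs2) had too few GKO barcodes and is not plotted.

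Within the quiescent stellate class, Rgs4 was not evenly spread over barcodes. The 153 WT and 290 GKO barcodes with an Rgs4 UMI had 5.17 and 16.7 CPM of Rgs17, and the 53 and 122 without one had 53.5 and 52.7 CPM. Rgs16 was at 14.2 and 46.9 CPM with Rgs4 and at 104 and 67.2 CPM without it. Rgs5 was at 8651 and 9058 CPM with Rgs4 and at 7229 and 6788 CPM without it. After thinning to 3000 UMIs, Rgs17 was detected in 1.79% and 9.23% of WT barcodes with and without Rgs4, from 112 and 65 barcodes, and in 1.98% and 10.6% of GKO barcodes, from 202 and 160. The Rgs17 values rest on 20 WT and 66 GKO UMIs, and barcodes were split by a gene that is itself detected in part, so the values are given as a description.

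Rgs9 (ENSMUSG00000020599; chromosome 11, 109225355 to 109298129, minus strand), known as the RGS protein that ends the light response in photoreceptors and found in the striatum, was highest in somatostatin-led barcodes. It had 2100 UMIs or 126 CPM (120 to 131) there in WT and 1546 UMIs or 141 CPM (134 to 148) in GKO, a log2 ratio of 0.16 (0.07 to 0.26). Glucagon-led barcodes had 27.4 and 26.7 CPM, pancreatic-polypeptide-led 16.3 and 16.8, and insulin-led 15.5 and 20.9. In insulin-led barcodes the log2 ratio was 0.43 (0.29 to 0.56), and in barcodes with every other hormone under 0.5% the values were 11.1 CPM (10.3 to 11.9) in WT and 15.3 (13.9 to 17.0) in GKO. With the hormone genes in the total, insulin-led and pancreatic-polypeptide-led barcodes could not be put in order. The class with ductal markers had 36.2 and 41.2 CPM, of which barcodes with at least 5 Krt19 UMIs had 7.05 and 0.806 CPM. The place of the insulin-led class depended on the total for Rgs9 as well. Without the hormone genes, insulin-led barcodes had 45.3 CPM in WT and 57.7 in GKO, above glucagon-led barcodes at 39.5 and 38.5. Pancreatic-polypeptide-led barcodes were then below both classes in either library, and somatostatin-led barcodes stayed highest, at 181 and 201 CPM. An Rgs9 UMI was found in 71.4% of WT and 71.8% of GKO somatostatin-led barcodes. After thinning to 3000 UMIs the shares were 30.1% and 33.5%, against 1.52% and 0.444% of resident macrophage barcodes, a class with little Rgs9. Its partners Gnb5 and Rgs9bp did not reach 50 CPM in any class. Rgs7bp, an anchor of the same group, had 185 CPM in WT and 171 in GKO in the quiescent stellate class, where Rgs9 had 5.59 and 4.75 CPM.

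Rgs17 (ENSMUSG00000019775; chromosome 10, 5825663 to 5922400, minus strand) had the same leading class as Rgs9 with a smaller distance to the next. Somatostatin-led barcodes had 1261 UMIs or 75.4 CPM (71.3 to 79.7) in WT and 975 UMIs or 88.8 CPM (83.3 to 94.5) in GKO. Glucagon-led barcodes had 51.2 and 63.2 CPM, pancreatic-polypeptide-led 31.5 and 35.0, and insulin-led 16.8 and 17.4. The log2 ratio of GKO to WT was 0.23 (0.11 to 0.36) in somatostatin-led and 0.30 (0.17 to 0.44) in glucagon-led barcodes, both within 1.5-fold. In activated stellate barcodes it was at 24.7 and 34.3 CPM, where Rgs9 was at 9.29 and 8.71, while endothelial barcodes had 14 and 2 UMIs, or 2.76 and 0.555 CPM. In the quiescent stellate class 20 UMIs in WT and 66 in GKO gave 18.6 and 28.5 CPM, and the ratio of 0.61, just past 1.5-fold, had an interval of −0.13 to 1.41.

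Rgs16 (ENSMUSG00000026475; chromosome 1, 153740349 to 153745468, plus strand, overlapped by Gm28513 on the other strand), a small RGS protein that is induced by stimuli in many cell types, had the fewest UMIs of the members, 2026 in all WT barcodes kept and 1429 in GKO. It was highest in the quiescent stellate class, at 39.2 CPM (28.2 to 52.9) in WT and 53.5 (44.5 to 63.8) in GKO. Activated stellate barcodes had 36.5 (29.7 to 44.3) and 17.2 CPM (13.9 to 21.2), so these classes could not be put in order in WT, and in GKO somatostatin-led barcodes, at 19.4 CPM, were above the activated stellate value with overlapping intervals. In the hormone-led classes it lay between 7.12 and 20.6 CPM. Without the hormone genes in the total, insulin-led barcodes were the highest of these classes, at 37.7 CPM in WT and 36.7 in GKO. Somatostatin-led barcodes then had 29.7 and 27.7 CPM, and activated stellate barcodes 37.2 and 17.4. In pancreatic-polypeptide-led barcodes 123 UMIs or 7.12 CPM in WT stood against 226 UMIs or 14.5 CPM in GKO, a log2 ratio of 1.03 (0.70 to 1.36), where 3.21% of genes were at least 1.5-fold higher. An Rgs16 UMI was found in 11.9% of the WT and 19.7% of the GKO barcodes of this class, and 1 GKO barcode held 14 of the 226 UMIs. At 10000 to 30000 UMIs the values were 7.24 and 14.2 CPM and from 30000 UMIs 7.11 and 15.8. In activated stellate barcodes 102 UMIs in WT and 91 in GKO gave a log2 ratio of −1.08 (−1.50 to −0.66), where 5.90% of genes were at least 1.5-fold lower. At least 50% of these UMIs lay in 9 WT and 8 GKO barcodes.

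Rgs16 was also higher in somatostatin-led, stellate and endothelial barcodes where the immediate early genes were high. In somatostatin-led barcodes the 354 WT barcodes with the lowest and the 354 with the highest summed level had 11.1 and 35.5 CPM, and the 251 and 251 GKO barcodes had 17.3 and 30.1. In activated stellate barcodes the corresponding values were 3.39 and 92.0 in WT and 7.66 and 40.1 in GKO, with rank correlations of 0.22 and 0.079. In the quiescent stellate class they were 24.4 and 32.2 in WT and 9.29 and 123 in GKO (0.051 and 0.24). Endothelial barcodes had 1.99 and 15.1 in WT and 4.08 and 12.1 in GKO. These 3 classes held few Rgs16 UMIs. There were 102 in WT and 91 in GKO in activated stellate, 42 and 124 in quiescent stellate and 46 and 28 in endothelial barcodes. No interval was made for the low and high groups, so the small WT difference in the quiescent stellate class is not read. The class with ductal markers went the other way, with 4.91 and 1.19 in WT and 20.1 and 1.18 in GKO. Macrophage barcodes held 0 and 10 Rgs16 UMIs. The part of mixed barcodes in these values was not tested either. In pancreatic-polypeptide-led barcodes, where Rgs16 differed between the libraries, the low and high groups were close to each other, at 6.54 and 7.995 CPM in WT and 15.4 and 14.2 in GKO. Rgs16 in insulin-led barcodes was also higher at lower depth, at 27.6 and 32.8 CPM at 10000 to 30000 UMIs against 9.82 and 8.48 from 30000 UMIs.

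The genes whose pattern over the 9 classes and both libraries was nearest to that of a member were sought among the 6047 genes that reached 50 CPM in a class, by Pearson correlation of log2(CPM + 1) over 18 points, 9 from each library. For Rgs2 these were Tspan33 (0.98), Tpd52 (0.96) and Rbm47 (0.92). For Rgs4 they were Ppp1cb (0.95), Cisd3 (0.94) and Sh3bgr (0.93), and for Rgs5 Cspg4 (0.97), Higd1b (0.97) and Cox4i2 (0.96), of which Cspg4 and Higd1b are in the marker list of the quiescent stellate class. For Rgs9 they were Cd164l2 (0.97), Tmed6 (0.96) and Caly (0.96), and for Rgs17 Tmem107 (0.96), Runx1t1 (0.96) and Meg3 (0.95). Rgs16 had no gene as near, the first being Cmbl, Fhl1 and Selm (0.87, 0.86 and 0.86). Among the members, Rgs9 and Rgs17 were the nearest to each other (0.76), and Rgs2 and Rgs5 the farthest apart (−0.72).

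Of the 15 other RGS genes, 6 reached 50 CPM in a class. Rgs1 and Rgs10 were at 1350 and 577 CPM in WT resident macrophage barcodes and at 1194 and 693 in GKO. Rgs3 and Rgs12 were highest in endothelial barcodes, at 89.3 and 71.3 CPM in WT and 94.7 and 71.6 in GKO, where no member but Rgs2 and Rgs5 passed 13.8 CPM. Rgs7, of the same group as Rgs9, was at 52.4 and 53.5 CPM in somatostatin-led barcodes. Rgs19 was at 39.8 and 52.5 CPM in resident macrophage barcodes. In insulin-led barcodes 7 of the 15 had at least 50 UMIs, of which 2 were at least 1.5-fold higher in GKO and none lower (background 3.98% and 3.11%). These were Rgs1 and Rgs10, named after their values were seen, at 2.85 and 5.00 CPM and at 2.58 and 4.33 CPM, while macrophage barcodes, their leading class, were 2.82% of the barcodes kept in WT and 7.22% in GKO.

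Of the α subunits on which RGS proteins act, 9 of 13 reached 50 CPM in a class. In insulin-led barcodes, 11 had at least 50 UMIs, none was at least 1.5-fold higher in GKO and 1, Gna14, was lower, with 51 UMIs in WT and 7 in GKO (background 3.98% and 3.11%). Their median log2 ratio was 0.15, where the median of all genes was 0.08. Gnaq and Gna11, which belong to the Gq class as Gna14 does, were at 39.5 and 70.9 CPM in WT insulin-led barcodes. In GKO they were at 39.4 and 78.9, so Gnaq and Gna11 lay within 1.5-fold where Rgs2 and Gna14 did not. In somatostatin-led and pancreatic-polypeptide-led barcodes none of 10 was past 1.5-fold, against the backgrounds given above. Of the 14 islet receptors, 3 reached 50 CPM in a class. Among them Adra2a, the α2A adrenergic receptor, had 60.6 CPM in WT and 98.9 in GKO in the quiescent stellate class, Npy1r had 383 and 307 CPM there, and Sstr3 had 67.3 and 66.2 CPM in somatostatin-led barcodes. In insulin-led barcodes 12 of the receptors had at least 50 UMIs, of which 2 were at least 1.5-fold higher in GKO (the ghrelin receptor Ghsr, 67 UMIs in WT and 46 in GKO, and Npy1r, 24 and 26) and 1 lower (Cckar, 50 and 0), where 3.98% and 3.11% of genes were. These 3 were named after their values were seen, and none was above 1.40 CPM in either library.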

How the data were processed

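Islet cells of WT and GKO mice were profiled in 1 droplet 3′ library per genotype. The deposited counts are whole UMIs for each gene and barcode, made by the authors with Cell Ranger 5.0.1 and mm10 (per the file headers and the submitters' processing notes), with reads down-sampled where needed to even out samples and before ambient RNA was removed.

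A nonendocrine barcode went to the marker list with at least 5 UMIs and 2 times the next list. No doublet caller was run, and 183 WT and 97 GKO hormone-led barcodes had a second hormone from 10%. Of the 5444 WT and 3941 GKO hormone-led barcodes, 3389 and 2192 had at least 5 UMIs of a nonendocrine marker list. These were left out as mixed in that alternative, by a limit that was not scaled to depth. Ratios are given from 50 UMIs over both libraries, a limit that was not applied again under the alternatives. Intervals are exact Poisson (levels), conditional binomial (ratios) and Clopper-Pearson (shares). Members and lists were chosen with earlier results of these data known. The genes named are the members, listed genes that reach 50 CPM, and the 3 genes most like each member. Positions are from GENCODE vM21, promoters from RefSeq. The ratio script was tested on simulated data. Python 3.11.15, numpy 2.4.6 and scipy 1.17.1 were used. Alternatives changed filters, class limits, totals, weights, depth and scaling.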

Additional observations from a re-analysis of the deposited data

Results flagged for a closer look

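In the following pairs of classes the log2 ratio of GKO to WT lay on opposite sides of 0, past 1.5-fold in the first class. Each value is the difference between the 2 ratios, none was tested, and with 1 library per genotype none could be. For Rgs2 the ratio was lower than in pancreatic-polypeptide-led barcodes (0.22) by a difference of −0.94 in insulin-led, −0.84 in quiescent stellate and −1.06 in activated stellate barcodes. With mixed barcodes left out, Rgs2 in the 24 WT and 14 GKO pancreatic-polypeptide-led barcodes that remained had a ratio of −1.10, on the same side as in insulin-led barcodes. These were fewer than the 50 barcodes set for a class. Over all barcodes of the class the ratio was 0.20 at 10000 to 30000 UMIs and 0.35 from 30000 UMIs. It was 0.35 with a mitochondrial share under 2% and 0.17 at 2 to 4%. For Rgs5 it was higher than in the class with ductal markers (−1.77, from 80 UMIs in WT and 23 in GKO) by 2.82 in insulin-led, 3.46 in glucagon-led, 5.45 in pancreatic-polypeptide-led and 4.51 in resident macrophage barcodes. In each of these 4 classes at most 12 barcodes of a library had 10 or more Rgs5 UMIs. The reference was as narrow, because 3 WT barcodes with ductal markers held 83.75% of the 80 UMIs. Of these UMIs, 77 lay in barcodes with at least 5 Krt19 UMIs. With the stricter marker rule the macrophage ratio was 0.32, from fewer than the 50 UMIs set for a ratio. Without mixed barcodes no Rgs5 UMI was left in the 24 WT and 14 GKO pancreatic-polypeptide-led barcodes, which were too few to inform the ratio. For Rgs16 the ratio was higher by 2.11 in pancreatic-polypeptide-led barcodes (1.03) than in activated stellate barcodes (−1.08).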

How the results depend on the processing

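No paired analysis was possible because there was 1 library per genotype. Of the log2 ratios of GKO to WT under an alternative, 474 lay within the counting interval of the value reported, 72 lay outside it and 3 that were past 1.5-fold changed sign (smaller ratios that changed sign are counted among the others), and of those of the leading to the next class 88 lay within and 44 outside. The alternatives on a second hormone and on quiescent stellate markers were added after seeing the data. Where a value moved, the cause was not tested. The depth of the quiescent stellate class (42 and 124 Rgs16 UMIs, 20 and 66 Rgs17 UMIs) limits what can be said there.

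For Rgs2 in insulin-led barcodes (−0.72) the log2 ratio of GKO to WT was −0.81 without mixed barcodes, −0.80 without hormones in the total, −0.87 with the second hormone under 2%, −0.68 after thinning and −0.83 when centred on the median of genes from 100 CPM. In somatostatin-led barcodes Rgs2 (−0.31) was at −0.50 with Sst from 25%, −0.11 without mixed barcodes (336 and 241 left) and −0.35 with the second hormone under 2%, Rgs17 (0.23) at 0.41, 0.51 and 0.0466, and Rgs9 (0.16) at 0.0651 under the last. In the quiescent stellate class the stricter marker rule (10 UMIs and 5 times) gave 0.0364 for Rgs4 (−0.14), 0.13 for Rgs5 (0.01) and −0.12 for Rgs17, which reversed. There Rgs5 was at −0.0751 with every barcode and −0.0302 after thinning, and Rgs16 (0.45) at 1.41 after thinning. Rgs5 reversed to −0.0678 in glucagon-led barcodes without mixed barcodes, and to −0.15 in insulin-led barcodes without those holding quiescent stellate markers.

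For the leading against the next class, the log2 ratio of Rgs2, somatostatin-led to macrophage, was 0.52 in WT and −0.14 in GKO with Sst from 25%, 1.23 and 0.76 without hormones in the total, and 0.45 in GKO without mixed barcodes. For Rgs4, quiescent stellate to somatostatin-led, it was 2.52 and 2.25 with Sst from 25%, 1.61 and 1.56 without hormones, and 1.94 and 1.88 with the second hormone under 2%. It was 1.89 without mixed barcodes and 2.30 after thinning in WT, and in GKO 2.21 with every barcode, 2.34 with the stricter marker rule, 2.33 as the mean of barcodes and 2.23 without the deepest 5%. For Rgs5, quiescent stellate to endothelial, it was 4.61 and 4.70 with every barcode, 5.65 and 5.32 with the stricter rule, 5.57 and 5.71 as the mean of barcodes, 5.10 and 5.64 without the deepest, 8.09 and 7.83 without quiescent stellate markers elsewhere, and 5.52 and 5.52 after thinning. For Rgs9, somatostatin-led to ductal markers, it was 5.49 and 6.69 without mixed barcodes, 2.19 and 2.39 with the stricter rule, 2.15 and 2.11 without hormones, and in WT 1.504 with Sst from 25% and 1.38 after thinning. For Rgs16, quiescent to activated stellate, it was 1.21 and 2.34 without quiescent stellate markers elsewhere and −0.80 and 2.05 after thinning. For Rgs17, somatostatin-led to glucagon-led, it was 0.10 and 0.15 with a hormone from 25% and 0.70 in GKO without mixed barcodes.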
